A study of Mus musculus with 16 samples.

Results

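Gene expression in the left atrium, LA, was compared probe by probe with that in the right atrium, RA, of the same MF1 mice. The arrays were chosen by strain alone: 8 of the 16 arrays of the series are from MF1, a wild-type outbred laboratory strain, and they comprise 4 LA arrays and 4 RA arrays, 1 array for each atrium of mice 1 to 4. The MF1 mice were 12 months old (the dataset the study calls MF1_12), untreated, and the tissue of each atrium was snap frozen and processed without pooling. The other 8 arrays, used only in the comparison of strains, are from Swiss Agouti mice, which the labels give as 12 months old and the study's methods in 1 place as younger. The study's table of animals gives MF1 as male and Swiss Agouti as female, so that strain and sex cannot be told apart. Whole atria contain heart muscle cells together with fibroblasts, endothelium, epicardium, nerves and blood-borne cells, and for every gene below fewer cells of a type and less RNA per cell cannot be told apart.

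Both atria pump with the same contractile apparatus and release the same natriuretic peptides, but they arise from opposite sides of the embryonic heart tube under a left-right programme of transcription factors. The RA carries the sinus node and receives the systemic and coronary veins, and the LA carries the pulmonary veins. Bone morphogenetic protein 10 (Bmp10), a ligand of the TGF-beta family made by atrial muscle cells, is a known RA gene of the adult mouse.

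The deposited values are log2 expression values that were quantile normalized and centred on the median of each probe, so that arrays can be compared for a probe but its level is not known. The presence of atrial marker transcripts could therefore not be checked as a level. Each mouse gave 1 difference of LA minus RA for each of 25697 probes, and these differences were tested with limma with the mouse as a block and Benjamini-Hochberg adjustment over all probes. A probe was called where its fold exceeded 1.5 and its adjusted p was below 0.05, and the fold is that of the higher over the lower atrium. Positive differences mean higher in LA. The standard error (SE) of the mean log2 difference is limma's moderated one. It is drawn toward the spread common to all probes and is not the plain spread of the 4 differences. The number of mice limits the precision.

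In the paired comparison 292 of the 25697 probes were called (1.14%). LA was the higher side for 120 (0.467%) and RA for 172 (0.669%). They comprised 248 named genes, 100 with a probe higher in LA (0.603% of the 16593 named genes measured) and 148 with a probe higher in RA (0.892%), and 14 probes without a gene name. All 292 probes had the same sign in the 4 mice, as had 21.5% of all probes, and in 263 of the 292 the LA and RA arrays did not overlap, as in 7.02% of all probes. The median fold of the called probes was 1.88 for LA and 1.75 for RA. A fold above 2 was found for 46 LA and 56 RA probes, and a fold above 4 for 5 LA and 11 RA probes. In 27 genes at least 2 probes were called, and in each of these genes they were called for the same side. Of the 85 called genes that had several probes on the array, 13 had all of them called, so that the probes of one gene were often not interchangeable.

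The calls rested on all mice to different degrees. Of the 292 probes, 88 (30.1%) were called whichever mouse was left out, 23 of the 120 higher in LA (19.2%) and 65 of the 172 higher in RA (37.8%). The number of calls was 115 without mouse 1, 390 without mouse 2, 123 without mouse 3 and 157 without mouse 4. Below, a gene is said to have lost its call where it no longer passed both limits without a mouse. Since all 292 probes had the same sign in every mouse, none could change its direction when a mouse was left out.

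**Figure D1:**
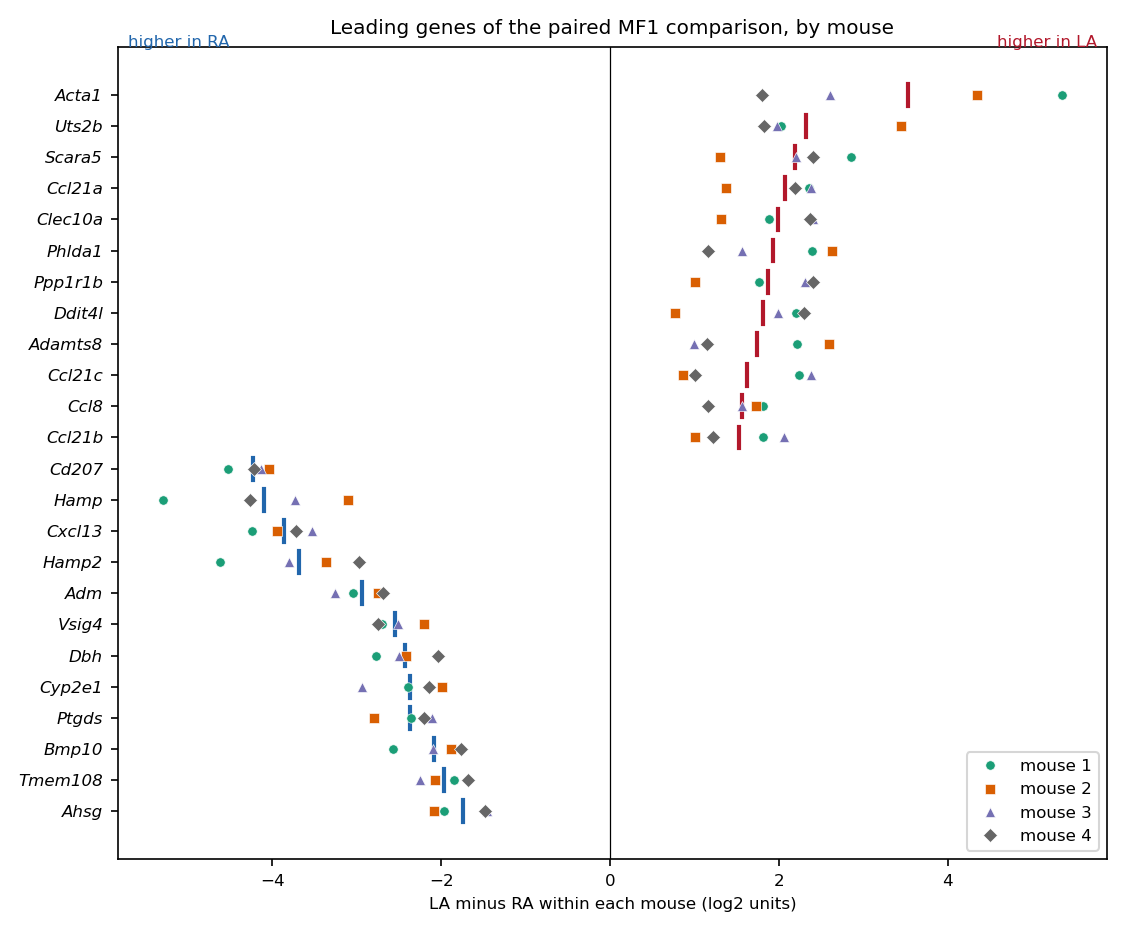
Differences of LA minus RA on the log2 scale (x axis) for the 12 genes with the largest fold on each side (y axis), with 1 symbol for each of the 4 mice and a vertical bar at their mean. All symbols of a gene lie on one side of 0, and they are spread from 1.80 to 5.35 for Acta1.

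The gene with the largest fold in LA was Acta1, which encodes the actin of skeletal muscle and is also made by heart muscle cells. In mice 1 to 4 its LA arrays were at 4.04, 3.90, 0.84 and 0.45 and its RA arrays at -1.31, -0.45, -1.77 and -1.35. The LA arrays lay above all RA arrays, but those of mice 1 and 2 stood far above those of mice 3 and 4. The mean difference was 3.53 (SE 0.54, 11.5-fold, limma adjusted p = 0.0265, n = 4 mice), and Acta1 lost its call without mouse 1 (adjusted p = 0.118), mouse 3 (0.103) or mouse 4 (0.0519). The probe of Actc1, the actin of heart muscle, differed far less, by 0.46, 0.66, 0.92 and 0.52 in the 4 mice (1.56-fold, SE 0.08, adjusted p = 0.0148, and 0.0606 to 0.0766 without mouse 1, 3 or 4), and a second Actc1 probe was at 1.33-fold with an adjusted p of 0.0507. Since both genes encode nearly identical actins, signal shared between their probes was not measured here.

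The promoters of Acta1 and Actc1 are shown because both hold a CArG box, the element bound by serum response factor, and both genes were higher in LA. They span the start of the gene in RefSeq (build GRCm38.p6, strand of the gene), chr8:123894726-123895025 on the minus strand for Acta1 and chr2:114052826-114053125 on the minus strand for Actc1, and the capitals mark the CArG box, which began 73 bases before the start in Acta1 and 47 bases before it in Actc1.
Acta1: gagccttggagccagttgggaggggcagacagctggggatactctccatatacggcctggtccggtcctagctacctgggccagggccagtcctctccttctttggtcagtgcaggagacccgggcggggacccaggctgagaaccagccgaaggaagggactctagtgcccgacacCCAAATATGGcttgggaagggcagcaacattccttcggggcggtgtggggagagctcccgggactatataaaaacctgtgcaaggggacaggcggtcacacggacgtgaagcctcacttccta
Actc1: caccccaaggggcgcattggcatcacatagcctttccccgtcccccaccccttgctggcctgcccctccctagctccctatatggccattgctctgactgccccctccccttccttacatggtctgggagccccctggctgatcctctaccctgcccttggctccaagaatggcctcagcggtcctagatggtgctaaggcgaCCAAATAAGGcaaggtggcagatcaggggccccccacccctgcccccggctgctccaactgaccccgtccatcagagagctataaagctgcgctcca
The box was searched on both strands, where it reads alike. It was found in 1.63% of the 32851 promoters of the table and in the promoters of 5 of the 79 genes higher in LA that the table holds (Acta1, Actc1, Cbr2, Lmcd1 and Myl3), of 1 of the 115 genes higher in RA (Igf2) and of 220 of all 13336 genes measured (1.65%). A match describes the letters and not the binding of a factor.

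The gene lists described here and below were written with earlier results of these data and the study's published genes known. A larger share of calls in a list than over all named genes may therefore be built in, and it was not tested. Each list count is to be read against the shares of all named genes, 0.603% in LA and 0.892% in RA. Of 42 sarcomere genes measured, 6 were called higher in LA (14.3%) and 0 in RA. The median difference of the list was 0.08, against -0.0006 for all named genes. Of the 42, 27 had a difference above 0, and the differences ranged from -1.08 to 3.53. Myl3, the essential light chain of ventricular and slow muscle myosin, was at 0.98, -0.41, 0.23 and 1 in the LA of mice 1 to 4 and at -1.22, -1.1, -0.73 and -0.58 in the RA. The LA arrays lay above the RA arrays, with the LA of mouse 2 the lowest of them (2.56-fold, adjusted p = 0.0377). Tnnt1, the troponin T of slow skeletal muscle, differed by 0.97, 0.74, 1.01 and 1.42 (2.05-fold, adjusted p = 0.0068), and Tpm2, a tropomyosin of slow muscle and smooth muscle, by 0.93, 1.52, 0.91 and 0.72 (2.03-fold, adjusted p = 0.0126), while 2 further Tpm2 probes were not called. Pdlim5, a protein of the Z disc, differed by 1.03, 2.61, 0.92 and 1.22 (2.73-fold, adjusted p = 0.0487), with mouse 2 the highest. Myl3, Tpm2 and this Pdlim5 probe lost their call without mouse 1, 3 or 4 (adjusted p 0.0519 to 0.198), and Tnnt1 without mouse 1 (0.0742) or mouse 3 (0.0634). Of 14 genes known from ventricular muscle, 3 were called in LA (21.4%, against 0.603% of all named genes), Ckmt2, Myl3 and Nav1. In RA 0 were called, and the list median was 0.07. Of the 14, 11 had a difference above 0, and the differences ranged from -1.08 to 1.36, so that the list was not on one side throughout. Of 15 genes known from skeletal muscle 1, Acta1, was called (6.67%), with a list median of -0.01. Of the 15, 7 had a difference above 0. A probe of Tnni2, the troponin I of fast skeletal muscle, differed by 1.20, 2.54, 0.89 and 0.90. It was not called (2.6-fold, adjusted p = 0.054). Without mouse 2, 3 genes of this list were called in LA, against 0.97% of all named genes. Whether tissue next to the LA entered these samples was not tested.

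Signalling genes were called in LA with several probes. Popdc2, a membrane protein that binds cyclic AMP, differed by 1, 1.63, 0.82 and 0.67 in one of its called probes (2.05-fold, adjusted p = 0.0207), and both called probes lost their call without mouse 1, 3 or 4 (adjusted p 0.0664 to 0.228). Gucy1a1, a subunit of the soluble guanylate cyclase that responds to nitric oxide, differed by 1.18, 1.09, 1.33 and 1.34 (2.35-fold, SE 0.06, adjusted p = 0.000537). Of its 3 called probes, 2 stayed called whichever mouse was left out.

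The other leading LA genes encode peptides, phosphatase regulators and proteases. Uts2b, which encodes a vasoactive peptide of the urotensin family, was at 1.55, 2.43, 0.67 and 0.51 in LA and at -0.47, -1.01, -1.32 and -1.31 in RA (4.99-fold, SE 0.26, adjusted p = 0.00863). The groups did not overlap, and the LA of mouse 2 was the highest. Phlda1, a protein with a pleckstrin homology-like domain, differed by 2.39, 2.63, 1.56 and 1.16 (3.82-fold, adjusted p = 0.0123). Adamts8, a secreted metalloprotease, was at 1.66, 2.22, 0.69 and 0.51 in LA and at -0.56, -0.37, -0.30 and -0.63 in RA (3.33-fold, adjusted p = 0.0268), so that for Acta1, Uts2b, Phlda1 and Adamts8 alike the LA of mice 1 and 2 lay above the LA of mice 3 and 4.

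For Ppp1r1b and Ddit4l the LA of mouse 2 was the lowest LA array. Ppp1r1b encodes DARPP-32, an inhibitor of protein phosphatase 1, and its LA arrays were at 1.03, 0.42, 1.49 and 2.03 and its RA arrays at -0.73, -0.58, -0.82 and -0.37 (3.65-fold, SE 0.22, adjusted p = 0.0107), while 2 further probes of the gene were at 1.15-fold and 1.43-fold and not called. Ddit4l, an inhibitor of mTOR signalling, differed by 2.20, 0.77, 1.99 and 2.29 (3.51-fold, adjusted p = 0.016). In both genes mouse 2 had the smallest difference. Uts2b, Ppp1r1b, Ddit4l and Adamts8 lost their call without mouse 1, 3 or 4 (adjusted p 0.0519 to 0.193), and Phlda1 without mouse 1 (0.11) or mouse 3 (0.073).

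Of 41 chemokines and chemokine receptors measured, 9 were called higher in LA (22%, against 0.603% of all named genes) and 2 in RA (4.88%, against 0.892%), while the list median was 0.01. The members of this list were chosen with earlier results of these data known. The LA members were the lymphatic chemokines Ccl21a, Ccl21b and Ccl21c, the monocyte and eosinophil attractants Ccl8, Ccl11 and Ccl12, Cxcl12 and Cxcl14, and the scavenging receptor Ackr2. Ccl21a was at 1.72, 1.09, 1.76 and 1.5 in LA and at -0.64, -0.28, -0.62 and -0.69 in RA (4.22-fold, SE 0.17, adjusted p = 0.0027). The groups did not overlap, and mouse 2 had the smallest difference. Ccl21b and Ccl21c differed by 0.87 to 2.38 in the 4 mice (2.88-fold and 3.08-fold), and the 3 genes are near-identical copies, so that their probes cannot be counted as 3 separate observations. Ccl8 differed by 1.82, 1.72, 1.57 and 1.16 (2.96-fold, adjusted p = 0.00178) and Cxcl12, a chemokine that retains progenitor and immune cells, by 1.54, 1.61, 0.92 and 1.38 in 1 of its 5 probes (2.57-fold, adjusted p = 0.00331). Ccl21a, Ccl8 and Cxcl12 stayed called whichever mouse was left out. Ccl21b, Ccl21c, Ccl11, Ackr2 and 1 Cxcl14 probe lost their call without mouse 1, 3 or 4 (adjusted p 0.0501 to 0.243). The other called Cxcl14 probe lost its call without mouse 3 (0.0542) or mouse 4 (0.0659). Ccl12 lost its call without mouse 1 (0.193), without mouse 3 (0.151) and, by its fold, without mouse 2.

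Of 13 genes of lymphatic endothelium, 4 were called in LA (30.8%, against 0.603% of all named genes), the 3 Ccl21 genes and Reln. In RA 1 was called (7.69%, against 0.892%), the hyaluronan receptor Lyve1. Lyve1 is also on the list of resident macrophages below and is counted in both lists. Reln, a secreted guidance protein, differed by 1.26, 0.98, 1.22 and 1.36 (2.30-fold, SE 0.07, adjusted p = 0.00112), and Lyve1 by -1.24, -0.51, -0.80 and -0.77 (1.78-fold, adjusted p = 0.0169). Lyve1 lost its call without mouse 1 (0.0617), mouse 3 (0.106) or mouse 4 (0.0989).

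Markers of resident macrophages were called on both sides, with a list median of -0.03. Of 20 markers, 5 were called in LA (25%, against 0.603% of all named genes) and 3 in RA (15%, against 0.892%). Clec10a, a galactose-binding lectin, was at 0.78, 0.99, 1.34 and 1.51 in LA and at -1.1, -0.33, -1.06 and -0.86 in RA (3.98-fold, SE 0.18, adjusted p = 0.00401). F13a1, the A subunit of coagulation factor XIII, differed evenly, by 1.34, 1.31, 1.41 and 1.43 (2.59-fold, SE 0.05, adjusted p = 0.000149), although its LA arrays (0.91, 1.49, 0.86 and 0.75) and RA arrays (-0.42, 0.18, -0.55 and -0.68) both stood highest in mouse 2. Mrc1, the mannose receptor, the carbonyl reductase Cbr2 and the lectin Cd209b completed the LA members, and these 3 lost their call without mouse 1, 3 or 4 (adjusted p 0.085 to 0.253).

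On the RA side Vsig4, which binds complement fragments on macrophages, was at -1.92, -1.40, -1.50 and -2.05 in LA and at 0.78, 0.80, 1.02 and 0.70 in RA (5.83-fold, SE 0.10, adjusted p = 0.000149). The haemoglobin scavenger receptor Cd163 differed by -0.88, -1.06, -0.44 and -0.54 (1.66-fold, adjusted p = 0.0223). Lyve1, described above, was the remaining RA member. Clec10a lost its call without mouse 1 (0.0566), F13a1 and Vsig4 stayed called whichever mouse was left out, and Cd163 lost its call without mouse 1 (0.173), mouse 3 (0.0676) or mouse 4 (0.0895).

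Cd207, or langerin, a lectin known from Langerhans cells, had the largest fold of all genes. In LA its 4 arrays were at -3.06, -2.91, -2.79 and -2.96 and in RA at 1.47, 1.14, 1.34 and 1.26, with no overlap (18.8-fold, SE 0.08, adjusted p = 1.01e-05). A second Cd207 probe gave 10.8-fold. Of the 11 genes of the list of dendritic and Langerhans cells, Cd207 was the 1 called. Cxcl13, the chemokine that attracts B cells, was at -3.30, -2.32, -2.40 and -2.66 in LA and at 0.94, 1.62, 1.13 and 1.06 in RA (14.5-fold, SE 0.11, adjusted p = 8.37e-05), while 0 of 9 B cell genes and 0 of 15 T and NK cell genes were called, with list medians of -0.02 and -0.01.

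The hepcidin genes Hamp and Hamp2, which encode peptides that control the export of iron, were among the 4 genes with the largest fold in RA. Hamp was at -4, -1.3, -1.85 and -2.66 in LA and at 1.3, 1.81, 1.88 and 1.6 in RA. The RA arrays lay closer together than the LA arrays, and the groups did not overlap. The differences were -5.30, -3.11, -3.73 and -4.26 for Hamp (mean -4.10, SE 0.31, adjusted p = 0.00245) and -4.62, -3.37, -3.80 and -2.97 for Hamp2 (12.9-fold, SE 0.24, adjusted p = 0.00141), and since the genes are near-identical neighbours their probes may share signal. Of 28 genes of iron and haem handling, 4 were called in RA (Hamp, Hamp2, Cd163 and the iron carrier Trf) and 1 in LA, Scara5, a ferritin receptor that was at 1.79, 0.58, 1.55 and 1.82 in LA and at -1.06, -0.73, -0.65 and -0.58 in RA (4.57-fold, adjusted p = 0.00664). The list median was -0.004. Hamp and Hamp2 stayed called whichever mouse was left out, and Scara5 and Trf lost their call without mouse 1, 3 or 4 (adjusted p 0.0543 to 0.104).

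Several RA genes belong to peptide and transmitter signalling. Adm, which encodes the vasodilator adrenomedullin, was at -1.34, -1.46, -1.57 and -1.58 in LA and at 1.71, 1.29, 1.68 and 1.11 in RA (7.66-fold, SE 0.10, adjusted p = 0.000149). Dbh, the enzyme that makes noradrenaline from dopamine, was at -1.46, -1.46, -1.13 and -1.38 in LA and at 1.31, 0.96, 1.37 and 0.66 in RA (5.39-fold, SE 0.11, adjusted p = 0.000406). The groups did not overlap in either gene. Of 22 genes of neurons, ganglia and Schwann cells, Dbh was the 1 called in RA and Syn2, a protein of synaptic vesicles, the 1 called in LA, and the list median was -0.003. Ptgds, a synthase of prostaglandin D2, differed by -2.36, -2.80, -2.10 and -2.20 (5.15-fold, SE 0.11), and Cyp2e1, a cytochrome P450, by -2.40, -2, -2.94 and -2.14 (5.16-fold, SE 0.15). Ryr3, a calcium release channel, differed by -1.66, -1.47, -1.40 and -1.87 (3.03-fold, SE 0.09). All 5 genes stayed called whichever mouse was left out.

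Bmp10 differed evenly in LA and unevenly in RA. Its LA arrays lay within -0.70 to -0.64, and its RA arrays were at 1.88, 1.19, 1.45 and 1.11 in mice 1 to 4 (4.23-fold, SE 0.13, adjusted p = 0.00116). Of 38 ligands, receptors and inhibitors of the BMP and TGF-beta families, Bmp10 and the co-receptor Eng were called in RA and 0 in LA, with a list median of -0.003. Of 25 genes known to respond to these ligands, a list also written with earlier results known, 6 were called in RA (24%, against 0.892% of all named genes). In LA 1 was called, and the list median was -0.07. The RA members were the inhibitory mediator Smad6, the inhibitors of differentiation Id1, Id2 and Id3, the repressor Hey1 and the co-repressor Skil, and the LA member was Ccn2, a matricellular protein.

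Smad6 differed evenly. Its LA arrays were at -1.18, -1, -1.3 and -1.35 and its RA arrays at 0.54, 0.50, 0.30 and 0.14 (2.99-fold, SE 0.06, adjusted p = 0.000149), and a second probe gave 1.67-fold. Hey1 differed by -1.52, -0.96, -1.51 and -1.42 (2.56-fold, adjusted p = 0.00218), Id2 by -1.86, -0.98, -1.90 and -1.34 (2.87-fold, adjusted p = 0.0068) and Id3 by -1.12, -0.29, -1.18 and -0.95 (1.84-fold, adjusted p = 0.0331). Mouse 2 had the smallest difference in Hey1, Id2 and Id3. This Smad6 probe and Hey1 stayed called whichever mouse was left out, and Id1, this Id2 probe, Id3 and Skil lost their call without mouse 1, 3 or 4 (adjusted p 0.0509 to 0.241). A second Id2 probe (1.85-fold) lost its call without mouse 1 (0.104) or mouse 4 (0.0755).

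The promoter of Smad6 is shown because it was the 1 promoter of the called genes of either side that held the letters GTCTAGAC, the palindrome bound by SMAD proteins, which are marked by capitals and read alike on both strands. It spans chr9:64022010-64022309 on the minus strand (RefSeq, build GRCm38.p6), and the palindrome began 4 bases before the start.
Smad6: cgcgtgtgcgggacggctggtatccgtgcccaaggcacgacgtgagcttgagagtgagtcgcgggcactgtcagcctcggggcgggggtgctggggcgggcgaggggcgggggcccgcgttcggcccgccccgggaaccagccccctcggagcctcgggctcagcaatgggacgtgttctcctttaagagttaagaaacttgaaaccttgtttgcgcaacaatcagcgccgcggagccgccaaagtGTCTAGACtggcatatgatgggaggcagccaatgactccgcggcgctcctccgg
The palindrome was found in 70 of the 32851 promoters (0.213%), in 0 of 79 genes higher in LA and in 1 of 115 genes higher in RA (0.87%).

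The insulin-like growth factor axis was the list with the largest share of members called in RA. Of 15 genes measured, 5 were called in RA (33.3%, against 0.892% of all named genes) and 0 in LA, and the list median was -0.02. The growth factor Igf1 lay on the other side, at 0.53, and was not called. They were the growth factor Igf2 and the binding proteins Igfbp3, Igfbp4, Igfbp5 and Igfbp6. Igfbp5 was at -0.67, -1.15, -0.47 and -0.79 in LA and at 0.78, 0.47, 0.83 and 0.48 in RA (2.66-fold, SE 0.07, adjusted p = 0.000537). Igf2 was at -0.50, -0.39, 0.35 and -0.28 in LA and at 0.64, 0.23, 1.27 and 1.05 in RA, so that the LA of mouse 3 lay above the RA of mouse 2, but within each mouse LA was lower, with differences of -1.14, -0.62, -0.92 and -1.33 (2-fold, SE 0.11, adjusted p = 0.00901). Igfbp3 and Igfbp5 stayed called whichever mouse was left out, Igfbp6 lost its call without mouse 1 (0.056), Igfbp4 without mouse 3 (0.0922) or mouse 4 (0.0658), and Igf2 without mouse 1 (0.1), mouse 3 (0.073) or mouse 4 (0.0519).

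Of 19 genes of the epicardium and mesothelium, the cell sheet that covers the heart, 5 were called in RA (26.3%, against 0.892% of all named genes). In LA 0 were called, and the list median was -0.25, against -0.0006 for all named genes. The median lay below 0 in each mouse, at -0.27, -0.11, -0.25 and -0.45. Upk3b, a surface protein of mesothelium, was called with 3 probes and differed by -1.07, -1.17, -1.26 and -1.25 in one of them (2.28-fold, SE 0.06, adjusted p = 0.000406). Wt1, a transcription factor of the epicardium, differed by -0.76, -1.32, -0.92 and -1.08 (2.03-fold, adjusted p = 0.00438), and the keratin Krt7, the secreted protein Dmkn and the transcription factor Tcf21 were the others. Wt1 and 2 of the 3 Upk3b probes stayed called whichever mouse was left out. The endocardium list, with 13 genes, had 3 called in RA (23.1%, against 0.892% of all named genes), Cytl1, Tmem108 and Vwf. It had 0 called in LA and 0 with a difference above 0, with a median of -0.21. Tmem108 differed by -1.84, -2.07, -2.26 and -1.69 (3.90-fold, SE 0.10, adjusted p = 0.000492).

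Of 29 genes of retinoid, steroid and drug metabolism, 5 were called in RA (17.2%, against 0.892% of all named genes) and 0 in LA, with a list median of -0.06. Without mouse 2 a further 3 were called in LA, against 0.97% of all named genes. The RA members were the enzymes Adh1, Aox3, Cyp1b1 and Cyp2e1, which stayed called whichever mouse was left out, and Rarres2, the secreted attractant chemerin, which lost its call without mouse 1 (0.202), mouse 3 (0.0539) or mouse 4 (0.11). Adh1, an alcohol dehydrogenase that also oxidizes retinol, differed by -0.93, -1.36, -1.06 and -1.01 in one of 2 called probes (2.13-fold, SE 0.08, adjusted p = 0.0019). The plasma proteins Ahsg (fetuin-A) and Fetub (fetuin-B), which are known from the liver, differed by -1.96, -2.08, -1.46 and -1.48 (3.36-fold, adjusted p = 0.00158) and by -0.69, -0.77, -0.90 and -0.77 (1.72-fold, adjusted p = 0.00189). The apolipoproteins Apoe, at -1.14, -0.79, -1.18 and -1.09 (2.07-fold), and Apoc1, at -1.04, -2.11, -1.95 and -1.90 (3.36-fold), were higher in RA as well, and Apoc1 lost its call without mouse 3 (0.0542) or mouse 4 (0.0536).

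Among 41 transcription factors and related genes of the left-right and atrial programmes, 3 were called in LA (7.32%, against 0.603% of all named genes). In RA 6 were called (14.6%, against 0.892%), and the list median was -0.06. The LA members were Mef2c (1.61-fold), Myocd (1.51-fold, near the fold limit) and Lbh. Lbh was at 0.81, 1.41, 0.26 and 0.24 in LA and at -0.40, 0.20, -0.33 and -0.44 in RA (1.89-fold, adjusted p = 0.0155, and 0.0501 to 0.118 without mouse 1, 3 or 4). In RA they were Bmp10, Hey1, Gata6, Tcf21, Smarcd3, a chromatin remodelling subunit that differed by -1.05, -0.97, -0.98 and -1.23 (2.08-fold, SE 0.06, adjusted p = 0.00107), and Msc, a basic helix-loop-helix repressor, which differed by -1.44, -1.62, -1.13 and -1.13 (2.51-fold, SE 0.09, adjusted p = 0.0019). Smarcd3, Msc, Bmp10 and Hey1 stayed called whichever mouse was left out. Mef2c lost its call without mouse 1 (0.141) or mouse 4 (0.108), Myocd and Tcf21 without mouse 1, 3 or 4 (0.0792 to 0.103), and Gata6 without mouse 1 (0.105), without mouse 3 (0.0843) and, by its fold, without mouse 2.

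**Figure D2:**
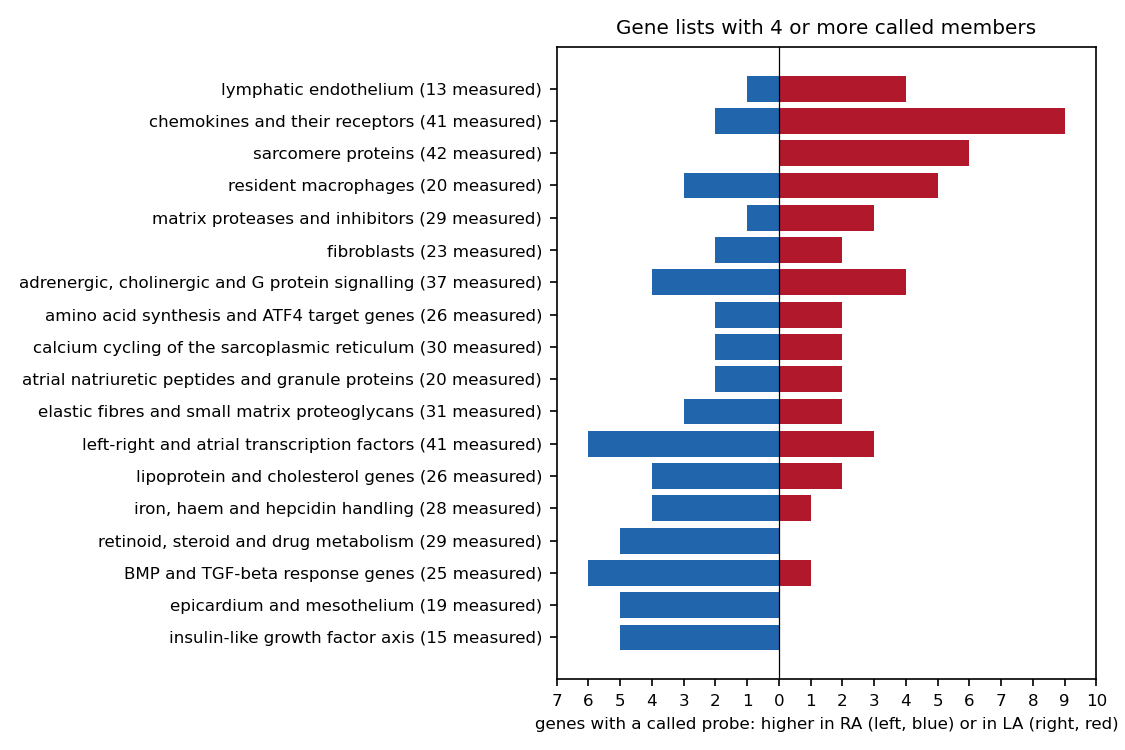
Number of genes with a called probe in each list with at least 4 called members, with those higher in RA as blue bars to the left and those higher in LA as red bars to the right, and the number of genes measured in brackets. Chemokines have 9 in LA and 2 in RA, sarcomere proteins 6 and 0, and the insulin-like growth factor axis, the epicardium and retinoid, steroid and drug metabolism each have 5 in RA and 0 in LA.

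Other lists held few or no calls. Of 36 potassium channels and regulators 0 were called, with differences from -0.35 to 0.32 and a median of 0.03. Of 10 sodium channel genes 1 was called, Fgf12, a regulator of these channels, at 0.50, 1, 0.63 and 0.61 (1.61-fold, adjusted p = 0.0137), which lost its call without any one of the 4 mice, by its fold without mouse 2. Scn4b, a beta subunit of the cardiac sodium channel, differed by 1.28, -0.09, 1.97 and 1.6 and was not called (adjusted p = 0.12), with mouse 2 alone near 0. The natriuretic peptide gene Nppa differed by 0.02, -0.14, 0.00 and 0.08, and Nppb by 1.17, 2.07, 0.52 and -0.09 (adjusted p = 0.241). Mapk10, a stress-activated kinase, was called in LA with 1 of 3 probes (1.92-fold, adjusted p = 0.0298, and 0.125 to 0.195 without mouse 1, 3 or 4), and the transcription factor Irx3 (-0.14, SE 0.06) and the potassium channel gene Kcnc4 (-0.24, SE 0.06, in one of 2 probes) were not called. Of 11 genes of lung and airway epithelium and 6 of red blood cells 0 were called.

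The pairing changed which genes were called. Without the replicate block, that is, with the LA and RA arrays treated as unrelated, 203 probes were called (0.79%), 76 higher in LA and 127 higher in RA. Of these, 199 were also called with the block, 93 probes of 78 named genes were called with it only (47 in LA and 46 in RA), and 4 were called without it only. The 93 probes had a median SE of 0.11 with the block and 0.2 without it. In 29 of them the LA and RA arrays overlapped, and the difference became visible only within the mice. The 4 probes that lost their call belonged to Col6a2, Lrrc10, Gpihbp1 and Kif1b, and their adjusted p with the block lay between 0.05 and 0.0529. Of the 93 probes, 4 stayed called whichever mouse was left out.

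**Figure D3:**
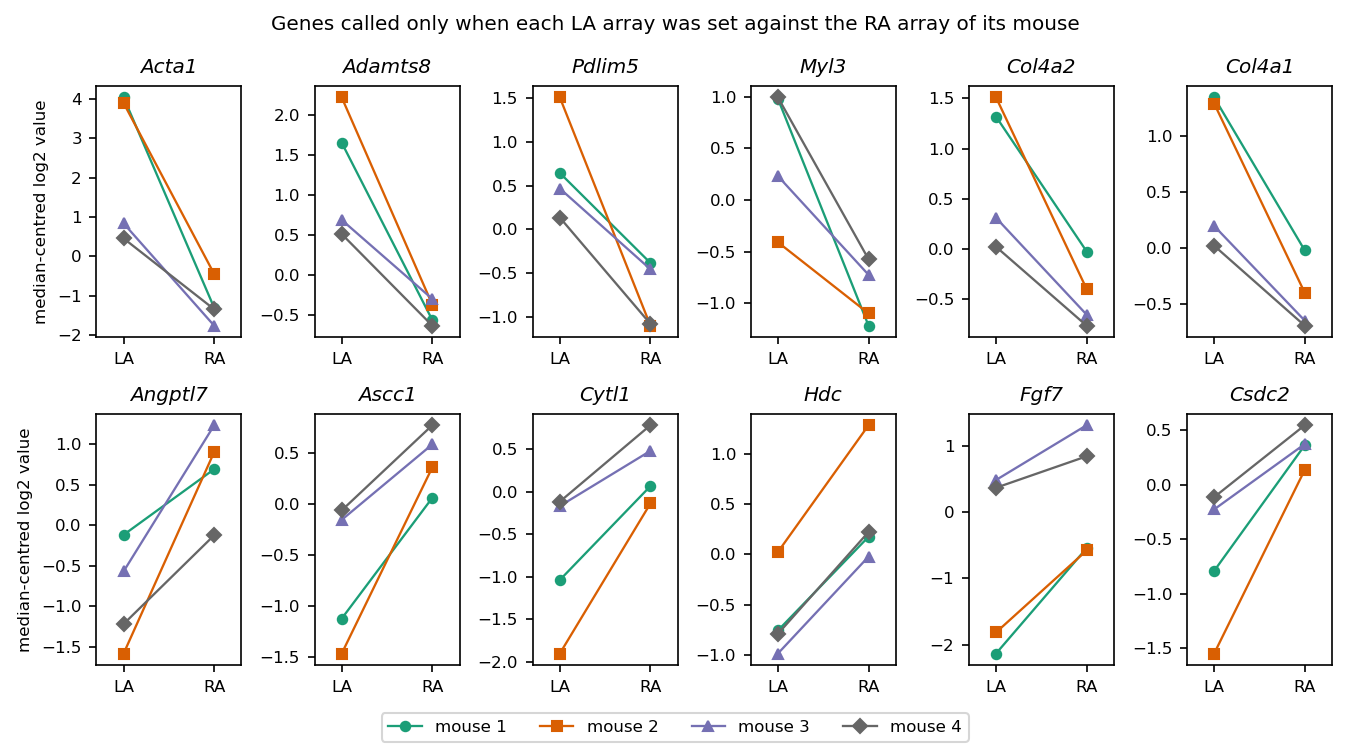
Median-centred log2 values (y axis) of the LA and RA arrays of each mouse, joined by a line, for the 6 genes with the largest fold on each side that were called with the mouse as a block and not without it, in the upper row those higher in LA and in the lower row those higher in RA. All lines of a gene slope the same way, and for Fgf7 the lines of mice 1 and 2 run below those of mice 3 and 4.

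Fgf7, a growth factor for epithelia that is made by mesenchymal cells, illustrates this. Its LA arrays were at -2.13, -1.81, 0.48 and 0.37 and its RA arrays at -0.54, -0.58, 1.31 and 0.84, so that the LA of mice 3 and 4 lay above the RA of mice 1 and 2. Within the mice it differed by -1.59, -1.23, -0.83 and -0.47 (2.04-fold, SE 0.17, adjusted p = 0.0332), whereas the adjusted p without the replicate block was 0.702. Fgf7 lost its call without mouse 1 (0.14), mouse 3 (0.128) or mouse 4 (0.0519).

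Hdc, the enzyme that makes histamine, was at -0.76, 0.02, -0.98 and -0.79 in LA and at 0.17, 1.28, -0.02 and 0.22 in RA. Mouse 2 was the highest on each side, and the differences were even, at -0.93, -1.26, -0.96 and -1.01 (2.06-fold, SE 0.07, adjusted p = 0.00143, against 0.194 without the block). Hdc stayed called whichever mouse was left out, but of 13 mast cell genes it was the 1 called, with a list median of -0.09. Angptl7, a secreted angiopoietin-like protein, differed by -0.81, -2.49, -1.81 and -1.1 (2.93-fold, adjusted p = 0.0345), and Cytl1, a secreted cytokine-like protein, by -1.11, -1.77, -0.65 and -0.90 (2.15-fold, adjusted p = 0.0244). Both lost their call without mouse 1, 3 or 4 (adjusted p 0.0697 to 0.18).

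Among the LA genes gained by the pairing were Col4a1 and Col4a2, the paired chains of basement membrane collagen IV. Col4a1 was at 1.35, 1.29, 0.20 and 0.02 in LA and at -0.02, -0.40, -0.65 and -0.69 in RA, and Col4a2 at 1.32, 1.51, 0.31 and 0.02 and at -0.02, -0.40, -0.65 and -0.76. In both genes mice 1 and 2 were higher than mice 3 and 4 in either atrium, and the LA of mouse 4 lay near the RA of mouse 1. The folds were 2.23 and 2.38 (adjusted p = 0.0183 for both, against 0.159 and 0.145 without the block), and both lost their call without mouse 1, 3 or 4 (adjusted p 0.0536 to 0.155). Of 24 collagens, 3 were called in LA (12.5%, against 0.603% of all named genes), Col4a1, Col4a2 and Col6a1, and 0 in RA. Of the 24, 20 had a difference above 0, and the median was 0.15, which in the single mice was 0.48, 0.18, 0.16 and -0.01. Of 23 fibroblast genes 2 were called on each side, with a median of 0.27 that was 0.57 in mouse 1 and 0.02 to 0.10 in the other mice.

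The paired fit also shows which transcripts differed between the mice in both atria alike. By the F test of the mouse terms, 62 probes (0.241%) of 55 named genes (0.331%) were called, with an adjusted p below 0.05 and mouse means that ranged over more than 1.5-fold. A mouse and whatever else its pair of arrays shared cannot be told apart. Hdc, Tppp3, Fgf7 and F13a1 were called for the mice and for the side, and the other 58 probes for the mice only. The calls depended on which mice were compared: 1 probe was called without mouse 1, 451 without mouse 2, 12 without mouse 3 and 10 without mouse 4.

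The circadian clock was the list with the most such genes, with 7 of 20 measured genes called for mouse differences, against 0.331% of all named genes. For the side 0 of them were called. In this clock the activators Arntl (BMAL1) and Clock drive the Per genes, Nr1d1 (REV-ERB alpha), Dbp and Ciart through E-boxes, and Nr1d1 represses Arntl and Nfil3 through elements bound by ROR and REV-ERB receptors. Arntl was at 0.93, 0.24, 0.29 and -0.86 in the LA of mice 1 to 4 and at 0.95, 0.20, 0.29 and -0.98 in the RA (3.62-fold between the highest and lowest mouse, adjusted p = 0.00285). Nfil3, a repressor of clock output, was at 0.73, 0.21, 0.45 and -0.83 in LA and at 0.61, 0.14, 0.18 and -1.1 in RA (adjusted p = 0.00537). Both were lowest in mouse 4 and highest in mouse 1.

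The called genes named above as driven through E-boxes were highest in mouse 4. Dbp, an activator of clock output, was at -2.28, -1.66, -1.37 and 1.1 in LA and at -1.92, -0.30, -0.48 and 1.33 in RA, which made its range of 9.91-fold the largest among the clock genes (adjusted p = 0.0313). Per1 was at -1.48, -0.10, -0.24 and 0.77 in LA and at -1, 0.73, 0.04 and 0.96 in RA (4.30-fold, adjusted p = 0.0217), and Per2 at -1.16, -0.63, -0.01 and 0.48 in LA and at -1.18, -0.17, 0.01 and 0.69 in RA (3.37-fold, adjusted p = 0.0217). In the probes given, the order of the mice was the same in both atria for Per1, Per2, Arntl, Nfil3 and Ciart. It was not the same for Dbp and Nr1d1. Nr1d1 and Ciart, a repressor within the clock, stood apart in mouse 4 alone, Nr1d1 at 0.72 in LA and 0.64 in RA against -0.47 to -0.17 in the other mice, and Ciart at 0.80 and 0.71 against -0.76 to -0.14. Of the 10 called probes of the 7 genes, 0 stayed called without mouse 1 or without mouse 4, 2 without mouse 3 (Arntl and Nfil3) and 10 without mouse 2. The time of day at which the atria were taken was not given in the sources used here.

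**Figure D4:**
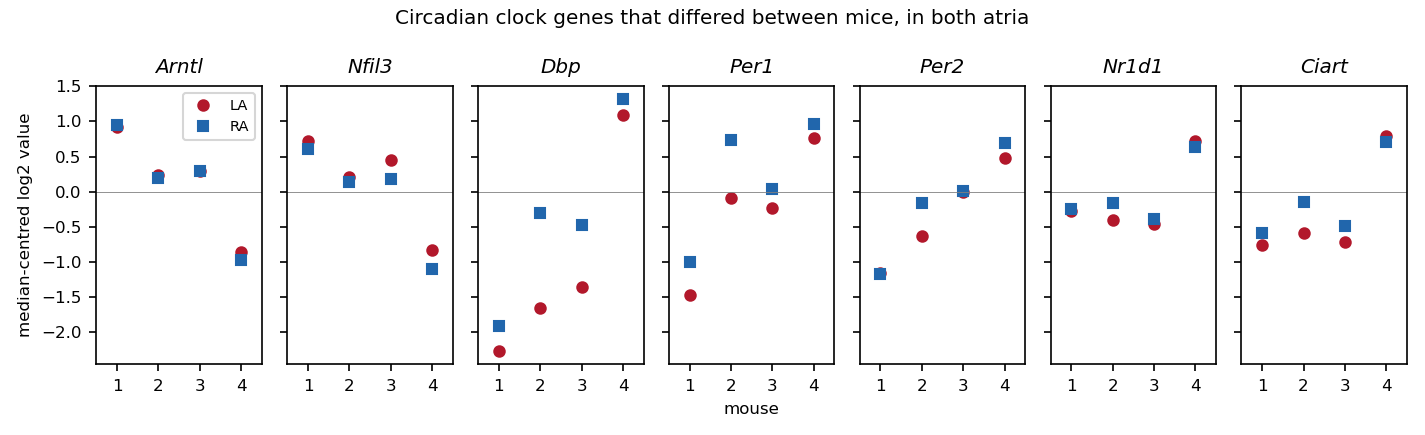
Median-centred log2 values (y axis) of the LA array (red circle) and the RA array (blue square) of mice 1 to 4 (x axis) for the 7 clock genes called for mouse differences, with the probe of smallest p of each gene. Arntl and Nfil3 lie lowest in mouse 4, and Dbp, Per1, Per2, Nr1d1 and Ciart lie highest there.

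The promoters of Arntl, Per1 and Ciart are shown because they hold the elements named above, in capitals. They are chr7:113207261-113207560 on the plus strand for Arntl (capitals TAGGTCA, the core of the ROR element, which began 30 bases after the start), chr11:69098699-69098998 on the plus strand for Per1 (capitals CACGTG, the E-box, which began 166 bases before the start) and chr3:95882179-95882478 on the minus strand for Ciart (3 E-boxes, which began 116, 58 and 44 bases before the start), all from RefSeq in build GRCm38.p6, and for Arntl and Per1 they are the 1 of 2 listed promoters with the element.
Arntl: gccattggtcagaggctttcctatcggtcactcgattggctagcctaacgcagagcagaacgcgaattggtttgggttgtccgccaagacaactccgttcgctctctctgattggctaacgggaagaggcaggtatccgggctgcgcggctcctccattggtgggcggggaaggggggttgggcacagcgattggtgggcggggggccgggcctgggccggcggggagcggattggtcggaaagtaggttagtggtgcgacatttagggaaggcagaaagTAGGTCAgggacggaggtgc
Per1: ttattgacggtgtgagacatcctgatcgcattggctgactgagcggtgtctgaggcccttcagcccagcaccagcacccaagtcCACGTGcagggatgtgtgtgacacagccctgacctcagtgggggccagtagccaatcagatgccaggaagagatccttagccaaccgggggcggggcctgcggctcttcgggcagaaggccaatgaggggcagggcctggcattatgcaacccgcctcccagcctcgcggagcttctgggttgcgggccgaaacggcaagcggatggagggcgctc
Ciart: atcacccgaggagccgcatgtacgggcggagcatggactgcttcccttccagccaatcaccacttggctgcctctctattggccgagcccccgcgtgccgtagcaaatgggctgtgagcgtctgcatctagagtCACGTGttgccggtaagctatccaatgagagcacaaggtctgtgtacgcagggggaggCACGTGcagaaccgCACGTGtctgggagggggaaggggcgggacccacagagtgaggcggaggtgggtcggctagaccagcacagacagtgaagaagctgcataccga
Both strands were searched, and no marked element overlapped another. The E-box was found in 7.15% of the 32851 promoters, in 9.68% of the genes measured and in 5 of the 41 genes with mouse differences that the table holds (Ciart, Dusp1, Extl2, Per1 and Rpusd4), and TAGGTCA in 2.61% of the promoters and in 3 of the 41 genes (Arntl, Nfil3 and Plek). Dbp, Per2 and Nr1d1, named above as driven through E-boxes, were not among the 5 genes with CACGTG.

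Other genes differed between mice in other orders. Hbb-b2, an adult beta-globin, was at 1.77, -1.26, 2.13 and -1.38 in LA and at 2.18, -0.73, 1.95 and -1.20 in RA (10.1-fold, adjusted p = 0.00273), so that mice 1 and 3 stood above mice 2 and 4 in both atria, and near-identical globin copies may share its signal. Of the 6 red cell genes it was the 1 called. Maob, the monoamine oxidase B, was at 0.11, -2.78, 0.29 and -1.90 in LA and at 0.05, -2.36, 0.21 and -2.23 in RA (7.07-fold, adjusted p = 0.00537) and had the same pair of mice at the top. Pdrg1, a gene regulated by p53 and DNA damage, was at -3.25, -0.76, 0.04 and -0.01 in LA and at -3.13, -0.46, 0.03 and 0.02 in RA and had the smallest adjusted p of the mouse differences (0.000613). Mouse 1 was by far the lowest, and mouse 2 lay below mice 3 and 4 in both atria. Without mouse 1 the adjusted p was 0.0904 for Hbb-b2, 0.103 for Maob and 0.322 for Pdrg1, and Maob also lost its call without mouse 3 (0.069). MF1 is an outbred strain, and neither genotypes nor probe sequences were examined here.

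Further mouse differences were found in Adipoq, Egr1 and Ctsk. Adipoq, the adipocyte hormone adiponectin, was at -0.09, 1.26, -0.08 and 0.02 in LA and at -0.13, 1.59, 0.14 and -0.02 in RA (2.9-fold, adjusted p = 0.0153), high in both atria of mouse 2, while of 16 adipocyte genes it was the 1 called for the mice and 2, Cidea and Scd1, were called in RA. The immediate early gene Egr1 was at 0.86, -0.87, -0.73 and 0.26 in LA and at 0.87, -0.80, -0.99 and 0.32 in RA (3.31-fold, adjusted p = 0.00537), with mice 1 and 4 above mice 2 and 3, and with Dusp1 it was 1 of 2 genes called for the mice among 30 immediate early and stress response genes. Ctsk, the protease cathepsin K, was at 1.40 and 0.65 in the LA and RA of mouse 1 and at -1.32 to -1.01 in all other arrays (4.96-fold, adjusted p = 0.0384). Adipoq lost its call without any one mouse (adjusted p 0.071 to 0.718), Egr1 without mouse 1 (0.165), and Ctsk without mouse 1 (0.859), mouse 3 (0.123) or mouse 4 (0.14).

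Mouse 2 departed from the others in the difference between its atria. The per-mouse differences of all probes, which share the same normalization, correlated at 0.58 to 0.62 among mice 1, 3 and 4 and at 0.27 to 0.45 with mouse 2 (Pearson's r across 25697 probes, which are not independent replicates, as a description). In 364 probes the difference of mouse 2 was more than 2-fold away from the mean of the other mice, against 21, 33 and 33 probes for mice 1, 3 and 4. The LA array of mouse 2 had a standard deviation of 0.226 from the group mean over all probes, against 0.104 to 0.154 for the other 7 arrays. Of 7 probes that differed by more than 1.5-fold one way in mice 1, 3 and 4 and by more than 1.5-fold the other way in mouse 2, 6 were lower in LA in the 3 mice, those of Cd74, H2-Ab1 (2 probes), H2-Aa, Lyz2 and Cd9, and 1 was higher in LA, that of Inmt. For mice 1, 3 or 4 in the place of mouse 2, 0 probes behaved in this way.

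**Figure D5:**
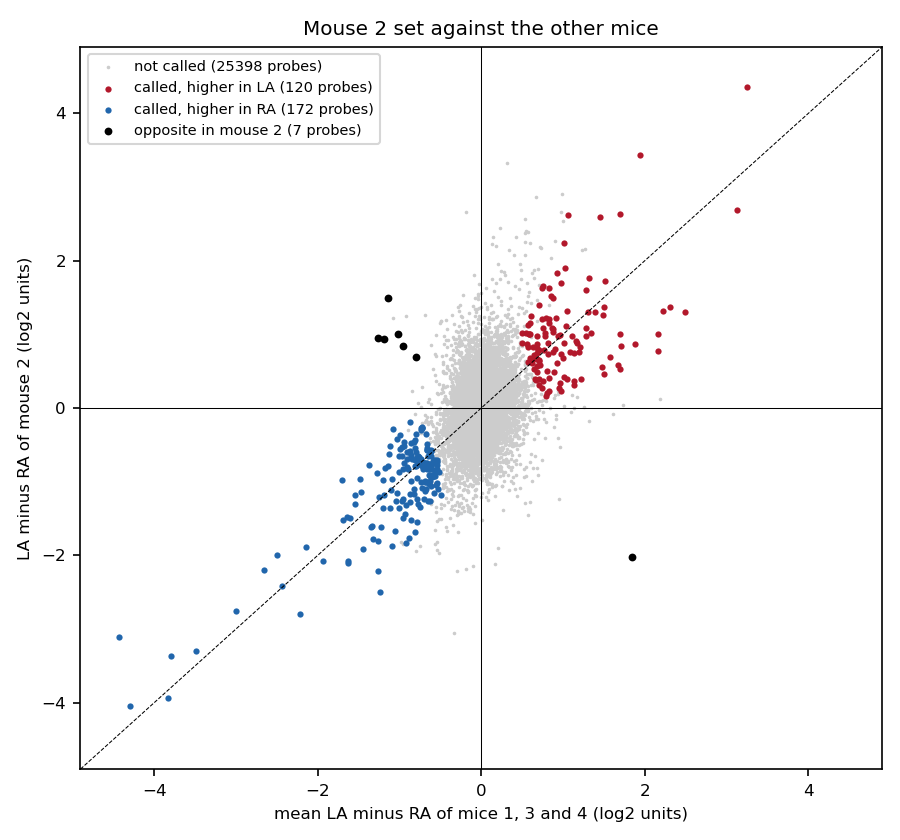
Difference of LA minus RA of mouse 2 (y axis, log2) against the mean difference of mice 1, 3 and 4 (x axis, log2), 1 point for each probe, with the called probes in red (higher in LA) and blue (higher in RA) and the 7 probes of opposite direction in black. The dashed line marks equal differences. The called probes lie in the quadrants of equal sign, 6 of the black points lie at the upper left and 1 at the lower right, and the cloud of other probes is stretched along the axis of mouse 2.

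Most of these probes belong to antigen presentation by MHC class II. Cd74, the invariant chain, was at -1.26, 2.14, -0.79 and -0.75 in LA and at 0.58, 1.19, 0.10 and 0.31 in RA, and H2-Ab1, a class II beta chain, at -1.13, 2, -0.89 and -0.80 in LA and at 0.61, 1.06, -0.02 and 0.18 in RA. Both atria of mouse 2 were the highest of their side, and the LA exceeded the RA in this mouse alone. The median of the 12 class II genes was -0.32, 0.58, -0.14 and -0.35 in mice 1 to 4, 0 of the 12 genes were called with all mice, and 4 were called in RA without mouse 2, against 1.01% of all named genes. With all mice Cd74 differed by -0.71 (adjusted p = 0.535) and this H2-Ab1 probe by -0.66 (0.553). Since the probes were chosen for the agreement of mice 1, 3 and 4, their values in these mice are a description. Lyz2, the lysozyme of macrophages and granulocytes, was at 0.30, 1.37, -0.55 and -0.97 in LA and at 1.15, -0.12, 1 and 0.06 in RA. Its LA too exceeded its RA in mouse 2 alone, but here the RA of mouse 2 was the lowest of its side.

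Without mouse 2, 390 probes were called (1.52%), 193 in LA and 197 in RA, of which 266 were also called with all mice (91.1% of the 292). The 124 probes of 103 named genes called only without it were higher in LA in 81 cases, and in 52 of the 124 mouse 2 had the opposite sign. They included the fibroblast protein Pi16, at 2.35, 0.13, 2 and 2.22 in mice 1 to 4 (adjusted p = 0.0711 with all mice, 3.59e-07 without mouse 2), the water channel Aqp1, at 0.97, -0.41, 0.73 and 1.1 in one of 3 probes (0.322 and 0.000109), the calcium pump Atp2a1 of fast muscle, at 2.04, 0.05, 2.07 and 1.09 (0.111 and 0.000175), phospholamban (Pln), which restrains the cardiac calcium pump, at 0.76, -0.34, 0.56 and 0.77 (0.357 and 0.000283), and Scn4b (2.76e-05 without mouse 2). In each of these genes LA was above RA in mice 1, 3 and 4. These genes were chosen after their values were seen, and since they were picked as called without mouse 2, those p-values only describe the choice.

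Single transcripts other than those of MHC class II were also high in the LA of mouse 2, and 4 of them are given as examples. Ankrd2, a stretch-responsive protein of the sarcomere, was at 0.45, 3.69, 0.32 and 0.01 in LA and at -0.15, 0.37, 0.07 and -0.07 in RA. The intermediate filament gene Nes was at 1.06, 2.49, -0.10 and 0.04 in LA, the matrix protein Tnc at 0.45, 2.66, -0.01 and -0.03 in its most variable probe, and the protease inhibitor Timp1 at -0.17, 3.33, 0.44 and -0.30. For Timp1 the RA of mouse 2 was high too (1.80, against -0.58 to 0.87 in the other mice), and for Ankrd2, Nes and Tnc the RA of mouse 2 lay between -0.37 and 0.37. None of these 4 genes was called for the side or for the mice. They too were chosen after their values were seen, and whether the state of the tissue or the array differed was not tested.

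The side differences of MF1 were set against those of Swiss Agouti mice. Of the 292 probes called in MF1, 280 (95.9%) had the same direction in Swiss Agouti, as had 55.6% of all probes, and of the 93 probes gained by the pairing 83 had it. No probe was called for a difference in side effect between the strains (0 of 25697 by limma on all 16 arrays, smallest adjusted p = 0.0525, 2294 probes or 8.93% at an unadjusted p under 0.05), so that nothing can be called particular to MF1. The smallest of these p-values belonged to a Cd207 probe, which differed by -3.44 in MF1 and by -2.51 in Swiss Agouti. Genes with unequal differences in the strains were Acta1 (3.53 and 0.94, adjusted p = 0.326 for the difference), Myl3 (1.36 and -0.16, adjusted p = 0.157) and Bmp10 (-2.08 and -3.65, adjusted p = 0.178). Leaving out 1 MF1 mouse at a time gave 0 calls except without mouse 2, where 22 probes were called.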

How the data were processed

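The authors hybridised RNA of each atrium, without pooling, to Illumina MouseRef-8 v2.0 bead arrays, extracted the signals with Genome Studio and normalized each dataset with GeneSpring by quantiles, each probe being set relative to its median. The deposited log2 values of this table were used as given. A second table of signals without normalization has 16 signal columns whose names are not tied to samples here, and it was not used. Limma 3.58.1 in R 4.3.3 was fitted to all 25697 probes with side and mouse as terms, and a probe was called at a Benjamini-Hochberg adjusted p under 0.05 and a fold above 1.5. Mouse differences were tested by the F test of the mouse terms, and the side by strain difference on all 16 arrays with the mouse as a block. The number in the titles was taken as the mouse, since the methods give 4 MF1 mice for the 8 arrays. In the check of the pairing, the deviations of same-numbered LA and RA arrays from their group means correlated at 0.23 to 0.499 and those of other numbers at -0.286 to 0.0203, and each array correlated best with its own number. Genes were named from the platform annotation for 23978 probes, and 1719 were unnamed. A list is described by its genes with a called probe and by the median over its genes of the mean difference of each gene's probes. Of 1261 symbols in 54 lists, 1136 were measured. In data simulated for the side comparison on 25697 probes, 92.8% of probes changed by 1.6-fold were called and 1.51% of calls were false, against 87.6% and 7.66% for mouse differences. The share of false calls pools changes of 1.6-fold to 5-fold. The simulated errors were normal and independent, with 1 spread for a probe in all arrays. The noisier LA array of mouse 2 was thus not represented, and these shares do not give the error rates of the real arrays. Members and lists were chosen with earlier results of these data known. The named genes are those with the largest fold on each side and those gained or lost by the pairing. They also include genes with several called probes or with mouse differences, and called members of the lists. Several, but not all, of the genes the study measured by RT-qPCR were added. Others are marked where they are described. Where nothing else is said, the spread between mice is the only error measured. Centred values hide the level, so that folds of dim probes may be understated. Some items are not reported here.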

Additional observations from a re-analysis of the deposited data

Results flagged for a closer look

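In 19 of 402 groups of 4 arrays (4.73%), 1 array of a probe chosen for naming lay far from the other 3. Chance gives about 1 in 20. The LA of mouse 2 lay at 1.26 for Adipoq (others -0.09 to 0.02), at -0.27 for Id2 (others -1.07 to -0.99), at 1.20 for Pdlim5 (others 0.56 to 0.65), at -0.16 for Smarcd3 (others -0.90 to -0.79) and at 1.23 for Tpm2 (others 0.36 to 0.48). The RA of mouse 2 lay at 1.59 for Adipoq (others -0.13 to 0.14), at 0.095 for Ccl12 (others -0.20 to -0.17), at -0.28 for Ccl21a (others -0.69 to -0.62), at 0.035 for Fbln2 (others -0.22 to -0.18), at 0.42 for Gng13 (others 1.07 to 1.18), at 0.48 for Ifi27l2a (others -0.51 to -0.34) and at 0.68 for Tmem176a (others 0.30 to 0.34). Mouse 2 held 12 of the 19 arrays.

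In the other mice, the LA of mouse 4 lay at -0.43 for Fxyd3 (others -0.67 to -0.63) and at -0.29 for Septin6 (others -0.59 to -0.58). The RA of mouse 1 lay at 0.0901 for a Kcnc4 probe (others 0.01 to 0.02) and at -3.13 for Pdrg1 (others -0.46 to 0.03). The RA of mouse 3 lay at -1.04 for Bdh1 (others -0.21 to -0.14) and at 0.61 for a second Id2 probe (others 0.39 to 0.40), and the RA of mouse 4 at -1.48 for Bnip3l (others 0.22 to 0.44).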

How the results depend on the processing

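The 292 calls of the paired comparison became 203 with no replicate block, 102 with a fold limit of 2, 630 with the adjusted p alone and 0 with the unmoderated variance of each probe (smallest adjusted p = 0.0513, 2775 probes at an unadjusted p under 0.05). Leaving out 1 mouse gave 115 to 390 calls with the block, and leaving out 1 array gave 117 to 289 without it. Moderation by robust variances, array weights, all 16 arrays, renewed quantile normalization and centring gave 265, 353, 352, 384 and 293. The 62 mouse differences became 0 with unmoderated variances (1923 at an unadjusted p under 0.05), 116 with array weights and 1 to 451 without 1 mouse. The side by strain difference had 0 calls with the block, 2 with no replicate block, 6 with array weights and 0 to 22 without 1 MF1 mouse. Of all 292 calls, 110, 266, 116 and 144 stayed without mouse 1, 2, 3 and 4. Of 169 called probes chosen for naming in the text, 98, 9, 96 and 77 lost their call without mouse 1, 2, 3 and 4. With no replicate block 48 of the 169 lost it. None could reverse in these fits, since each had the same sign in every mouse. Of 54 list medians, 16 changed sign without 1 mouse. The alternatives of background correction and of a filter on dim probes were not run, since the signals without normalization could not be tied to samples. With 4 mice the precision is limited, and signal over background is unknown.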

Other observations

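Called genes that neighbour each other on a chromosome were listed among the 16583 named genes with a position. In 18 neighbouring pairs both genes were called, 8 pairs for LA, 7 for RA and 3 for opposite sides. The LA pairs included the chemokine genes Ccl11, Ccl12 and Ccl8, which lie side by side, the collagen IV genes Col4a1 and Col4a2, and Syn2 with Timp4, an inhibitor of metalloproteases. The RA pairs included Ahsg with Fetub, Apoc1 with Apoe, Hamp2 with Hamp and the membrane protein genes Tmem176b and Tmem176a. Pld4 and Clba1, Apod and Bdh1, and Pxylp1 and Spsb4 were called for opposite sides. Duplicated genes such as the chemokines and hepcidins stand beside each other, and the number of pairs was not tested.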
